A study of Rattus norvegicus with 36 samples.

Results

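The genes described here are a set of 9 rat genes for fatty acid omega-hydroxylation and peroxisomal oxidation: Cyp4a1, Acox2, Ehhadh, Hsd17b4, Acaa1a, Decr2, Crot, Pex11a and Cat. They were listed by name, and a gene counted as measured where a probe set on the array named that gene and no other. By this rule 8 of the 9 genes were measured, with 11 probe sets, of 14217 genes and 31042 probe sets in all. Pex11a had 2 such probe sets and Crot had 3, and each gene is given by its brightest probe set on average. Acaa1a is covered only by a probe set that names Acaa1b as well, and it therefore has no value here.

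Gene expression was measured in the left liver lobe of male Harlan Sprague Dawley rats, 7 weeks old at the start, that received 5 daily gavage doses and were killed 1 day after the last of them. The agent, TBBPA-DBPE, is a flame retardant that carries bromine; its full name is tetrabromobisphenol A-bis(2,3-dibromopropyl ether). The 6 groups of 6 arrays were corn oil alone (vehicle, 0 mg/kg) and TBBPA-DBPE in corn oil at a low dose of 0.1 or 0.94 mg/kg, a middle dose of 9.4 mg/kg or a high dose of 94.3 or 943 mg/kg. Each array gave log2 expression values, and the replicates, numbered 1 to 6 in the labels, are taken as separate animals. The sources used here give neither the time of day nor the feeding state at necropsy. Values are relative hybridisation signals, so the 8 genes are compared between groups and never with each other in level.

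Long-chain fatty acids that are not burned in mitochondria can be hydroxylated at their far end by CYP4A enzymes of the endoplasmic reticulum and shortened in peroxisomes. There an acyl-CoA oxidase makes a double bond and hydrogen peroxide, a bifunctional enzyme hydrates and oxidises the chain, and a thiolase splits off acetyl-CoA. In rodent liver the nuclear receptor PPARalpha, paired with RXR on direct repeats of a short hexamer, is known to raise Cyp4a, Ehhadh and Pex11a strongly when it is activated by fibrate drugs or by fasting. Whether TBBPA-DBPE moves these genes is a question that the series' comparison of each dose with vehicle can address.

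Promoter sequences are shown because some of the 9 genes are known as targets of PPARalpha and because several of the 9 varied together between animals, as described below. The windows run from 250 bases before to 50 bases after the start of the gene, are from RefSeq in build GRCr8, and are read on the strand of the gene. A promoter was found for 8 of the 9 listed genes, Acaa1a among them, and Cyp4a1 is named only. The promoters of Ehhadh (chr11:92746159-92746458, plus strand), Hsd17b4 (chr18:45515177-45515476, plus strand) and Decr2 (chr10:15617387-15617686, minus strand) belong to genes that correlated with each other over animals. That of Cat (chr3:110329477-110329776, minus strand) belongs to a gene whose correlations with them did not pass the test. Capitals mark every match on either strand of the hexamer AGGTCA, which is the unit of that repeat, and of the GC box, whose letters are GGGCGG. They also mark the CCAAT box. The letters of a TATA box, searched as TATAAA, had no match in these promoters.
Ehhadh: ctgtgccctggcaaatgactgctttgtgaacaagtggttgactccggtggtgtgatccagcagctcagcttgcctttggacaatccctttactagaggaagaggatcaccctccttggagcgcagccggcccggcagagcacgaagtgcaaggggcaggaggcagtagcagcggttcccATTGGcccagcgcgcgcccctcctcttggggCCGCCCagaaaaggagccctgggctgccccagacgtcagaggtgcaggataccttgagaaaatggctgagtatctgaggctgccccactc
Hsd17b4: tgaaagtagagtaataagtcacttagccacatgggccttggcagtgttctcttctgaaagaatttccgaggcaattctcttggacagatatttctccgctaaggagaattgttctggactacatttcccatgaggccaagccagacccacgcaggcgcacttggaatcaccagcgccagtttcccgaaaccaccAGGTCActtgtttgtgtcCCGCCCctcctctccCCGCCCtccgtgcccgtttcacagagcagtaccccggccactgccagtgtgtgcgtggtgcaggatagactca
Decr2: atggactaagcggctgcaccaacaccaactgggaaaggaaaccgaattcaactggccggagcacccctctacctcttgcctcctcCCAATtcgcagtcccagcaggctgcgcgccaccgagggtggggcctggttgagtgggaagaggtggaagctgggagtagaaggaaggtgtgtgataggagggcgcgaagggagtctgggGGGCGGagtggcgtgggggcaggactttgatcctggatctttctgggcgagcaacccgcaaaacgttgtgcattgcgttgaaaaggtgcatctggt
Cat: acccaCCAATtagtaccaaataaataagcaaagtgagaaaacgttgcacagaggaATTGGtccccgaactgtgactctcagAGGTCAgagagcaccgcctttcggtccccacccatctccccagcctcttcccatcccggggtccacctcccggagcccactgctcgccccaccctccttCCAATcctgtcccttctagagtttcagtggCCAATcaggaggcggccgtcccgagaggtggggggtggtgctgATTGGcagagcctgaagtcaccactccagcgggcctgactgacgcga
The hexamer AGGTCA was in 2 of the 8 promoters, on the strand of the gene: it starts at position -56 in Hsd17b4 and at position -169 in Cat, counted from the gene start. It is held by 16.2% of all 33469 RefSeq promoters on either strand. Its direct repeat with any 1 base between the copies, the element of PPAR and RXR, was in 0 of the 8, against 0.0538% of all promoters. With any base allowed at the fourth place of each copy, the count was again 0 of 8, against 0.415%. A repeat contains the single hexamer and is counted under both. GC boxes were in 6 of the 8 promoters (33.1% of all), CCAAT boxes in 6 (37.5%) and the TATA box in 0 (14.2%). A match is a description of these letters, and the absence of a match says only that they are not in this window.

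The label of liver was checked on markers, whose signals were set only against the median of the arrays, a rough sign of detection that also depends on the probes. All 9 measured hepatocyte markers lay above the median of the arrays, and the mean of these markers varied only from 13.09 to 13.15 between groups. Of the lymphocyte markers 0 of 7 lay above it. Kupffer cell markers, 8 of 8 above it, had group means from 8.16 to 8.51, and their part in the results was not tested. The RNA is from whole tissue, so fewer cells of a type and less RNA per cell cannot be told apart. Array medians lay between 4.59 and 4.66, and the correlation of any pair of arrays was between 0.989 and 0.997.

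None of the 8 genes was called higher or lower than vehicle at any dose of TBBPA-DBPE. In limma with Benjamini-Hochberg adjustment over all probe sets, 0 of 8 passed at any of the 5 doses, in the F test over the 5 doses and in the trend over dose rank. The share of all 31042 probe sets called was 0% in each of these 7 tests, so the count of 0 is the same as the background. At an unadjusted p under 0.05 the genes, by their brightest probe sets, numbered 1, 3, 1, 1 and 1 of 8 from the lowest to the highest dose. The share of all probe sets was 5.62%, 4.16%, 4.85%, 6.90% and 5.74%. The smallest adjusted p of the 8 genes by these probe sets was 0.886, 0.999, 0.980, 0.621 and 0.865 in the same order. Crot is not in these counts, but its second brightest probe set had an unadjusted limma p of 0.037, 0.035 and 0.028 at 0.1, 0.94 and 9.4 mg/kg.

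The estimates lay mostly below vehicle and were small. At 0.1, 0.94 and 94.3 mg/kg 8 of 8 genes had a mean below that of the vehicle group, and at 9.4 and 943 mg/kg 7 of 8 did. The medians of the 8 log2 differences were -0.072, -0.11, -0.085, -0.10 and -0.063 from the lowest to the highest dose. Over all probe sets the share below vehicle was 50.1%, 50.8%, 52.9%, 48.4% and 50.3%. All 5 comparisons share the same 6 vehicle arrays, so their directions are not independent of each other. Vehicle replicate 4 had high values of several of these genes, and without it the number below vehicle was 6, 7, 6, 7 and 5 of 8. The medians without it were -0.063, -0.098, -0.043, -0.077 and -0.064, so that at 9.4 mg/kg the median moved by over 1.5 times. The 95% intervals, each taken alone, bound the size of the differences. Of the 40 differences, 8 genes at 5 doses by their brightest probe sets, all 40 had an upper bound below a 1.2-fold increase. The interval lay inside 1.5-fold in both directions for 39 of the 40 and inside 1.2-fold for 21. The dimmest Crot probe set exceeded the 1.2-fold bound (0.263 in log2), with upper bounds of 0.58, 0.38 and 0.38 at 0.1, 94.3 and 943 mg/kg.

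**Figure D1:**
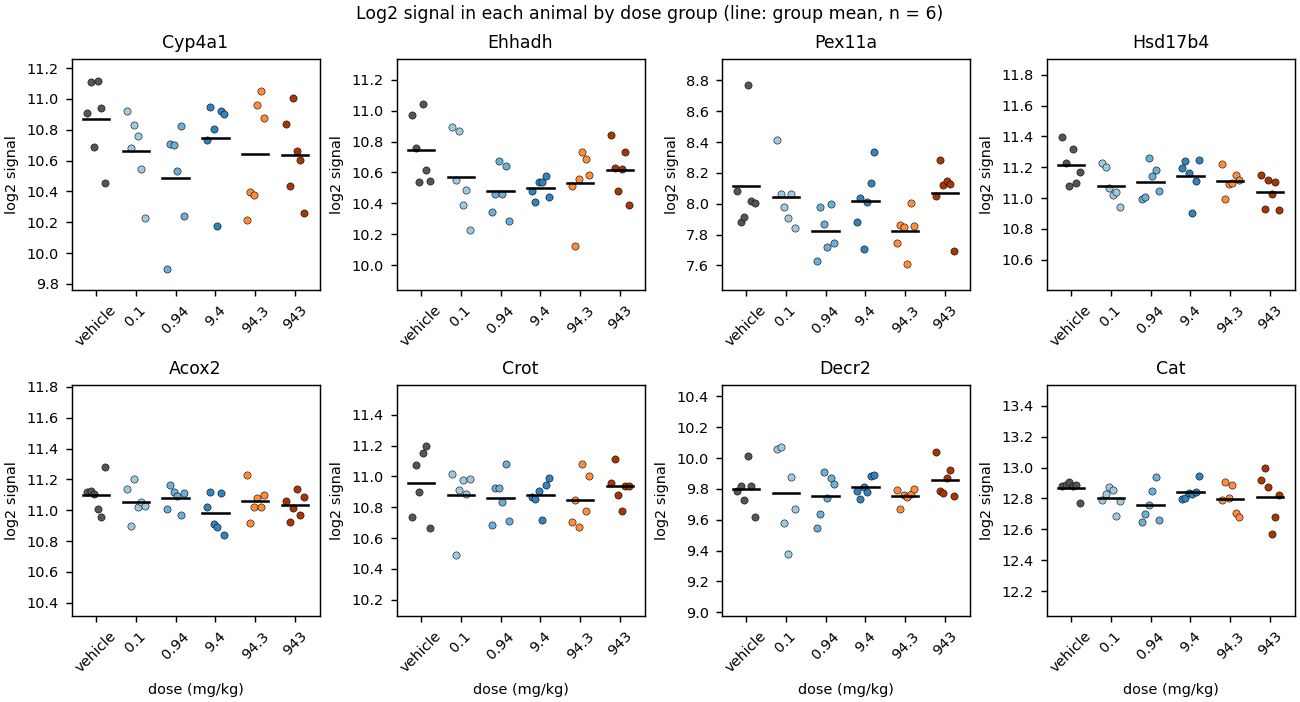
Log2 signal of each of the 8 genes (vertical axis, the same span of 1.5 log2 units in every panel) in the 6 dose groups (horizontal axis, mg/kg); points are animals and lines are group means of 6 animals. The groups overlap in every panel, and Cyp4a1, Ehhadh and Pex11a spread more widely than Acox2, Hsd17b4 and Cat.

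Cyp4a1, the fatty acid omega-hydroxylase, had log2 values with lowest, median and highest of 10.46, 10.92 and 11.12 in the vehicle group. They were 10.23, 10.72 and 10.92 at 0.1 mg/kg, 9.90, 10.62 and 10.83 at 0.94 mg/kg, and 10.17, 10.85 and 10.95 at 9.4 mg/kg. At 94.3 mg/kg they were 10.22, 10.63 and 11.05, and at 943 mg/kg 10.26, 10.63 and 11.00. No dosed animal exceeded the highest vehicle animal, and every group overlapped the vehicle range, with 1, 2, 1, 3 and 2 of 6 animals below it from the lowest to the highest dose. The log2 differences from vehicle were -0.21, -0.38, -0.12, -0.22 and -0.24, each with a standard error of 0.16. Without replicate 4 of the 9.4 mg/kg group the difference at that dose was -0.0073. At 94.3 mg/kg it was -0.14 without replicate 1 of that group. The estimate farthest from 0, at 0.94 mg/kg, corresponds to a 1.31-fold lower mean with a 95% interval from -0.71 to -0.057 (log2) and an adjusted p of 0.999. The slope per step of dose rank was -0.028 ± 0.028 (SE) with an adjusted p of 0.924. Cyp4a1 lies in a cluster of closely similar Cyp4a genes, and how far its probe set also binds their transcripts is uncertain. Of that cluster, Cyp4a3 had differences of -0.018, -0.24, -0.14, -0.078 and -0.085, and Cyp4a8 had differences between -0.086 and 0.041.

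Acox2 is the peroxisomal oxidase of branched-chain fatty acids and of bile acid side chains. Its 36 values lay between 10.84 and 11.28, a 1.36-fold range. Its differences were -0.044, -0.022, -0.12, -0.038 and -0.068 with a standard error of 0.061, and at 9.4 mg/kg, the farthest from 0, 3 of 6 animals lay below the vehicle range (adjusted p = 0.980).

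Ehhadh encodes the peroxisomal bifunctional enzyme that acts on straight chains and is among the genes most raised by peroxisome proliferators. Its lowest, median and highest values were 10.54, 10.69 and 11.04 in the vehicle group, 10.23, 10.52 and 10.90 at 0.1 mg/kg, and 10.28, 10.46 and 10.68 at 0.94 mg/kg. They were 10.41, 10.51 and 10.58 at 9.4 mg/kg, 10.13, 10.57 and 10.73 at 94.3 mg/kg, and 10.39, 10.63 and 10.85 at 943 mg/kg. The 9.4 mg/kg group was the tightest, and 5 of its 6 animals lay below the lowest vehicle animal, although the groups still overlapped. The log2 differences were -0.18, -0.27, -0.25, -0.21 and -0.13 with a standard error of 0.11. At 0.94, 9.4 and 94.3 mg/kg all 6 animals lay below the vehicle mean, with adjusted p of 0.999, 0.980 and 0.726. At 9.4 mg/kg the mean was 1.19-fold lower, with a 95% interval from -0.47 to -0.033 (log2). The highest dose did not have the lowest values.

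Hsd17b4 encodes the other bifunctional enzyme of peroxisomes, which handles branched chains and bile acid intermediates. Its lowest, median and highest values were 11.08, 11.20 and 11.40 in the vehicle group, 10.94, 11.05 and 11.23 at 0.1 mg/kg, and 10.99, 11.09 and 11.26 at 0.94 mg/kg. They were 10.90, 11.18 and 11.25 at 9.4 mg/kg, 10.99, 11.11 and 11.22 at 94.3 mg/kg, and 10.92, 11.07 and 11.15 at 943 mg/kg. The vehicle group had the highest median, and 4, 3, 1, 1 and 3 of 6 animals lay below its range from the lowest to the highest dose. The log2 differences were -0.13, -0.11, -0.071, -0.10 and -0.17 with a standard error of 0.066. The slope was -0.021 ± 0.011 (SE) per step of dose rank, with an adjusted p of 0.875. At 943 mg/kg the mean was 1.13-fold lower (adjusted p = 0.865), and all 6 animals lay below the vehicle mean.

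Decr2, the peroxisomal dienoyl-CoA reductase that prepares polyunsaturated chains for oxidation, was the only gene of the 8 with estimates on both sides of vehicle. Its differences were -0.024, -0.040, 0.017, -0.039 and 0.062 with a standard error of 0.085. At 0.1 mg/kg its 6 values spread from 9.38 to 10.07, wider than the 9.62 to 10.02 of the vehicle group, with 2 animals above and 2 below that range. At 94.3 mg/kg they lay within 9.67 to 9.80.

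Crot, the carnitine octanoyltransferase that passes shortened chains on towards mitochondria, had differences of -0.076, -0.094, -0.076, -0.11 and -0.019 with a standard error of 0.092, and adjusted p values of at least 0.879. Its values lay between 10.49 and 11.19 over all animals. The other bright Crot probe set gave -0.22, -0.23, -0.24, -0.10 and -0.075, with all 6 animals below the vehicle mean at 0.1 and 9.4 mg/kg and adjusted p of 0.883 and 0.980. The third Crot probe set, near the median of the arrays, differed in sign between doses, from -0.16 at 9.4 mg/kg to 0.27 at 0.1 mg/kg, where the others were negative.

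Pex11a encodes a membrane protein of peroxisome division. Its lowest, median and highest values were 7.88, 8.01 and 8.77 in the vehicle group, 7.84, 8.02 and 8.41 at 0.1 mg/kg, and 7.63, 7.81 and 8.00 at 0.94 mg/kg. They were 7.71, 8.03 and 8.33 at 9.4 mg/kg, 7.61, 7.85 and 8.01 at 94.3 mg/kg, and 7.69, 8.13 and 8.28 at 943 mg/kg. The highest vehicle value, that of replicate 4, stood apart from the other vehicle animals, of which the next had 8.08. At 94.3 mg/kg 5 of 6 animals, and at 0.94 mg/kg 4 of 6, lay below the vehicle range. The log2 differences were -0.068, -0.29, -0.095, -0.29 and -0.040 with a standard error of 0.12. The adjusted p at 94.3 mg/kg was 0.621, the smallest of the set at any dose, and without vehicle replicate 4 the differences at 0.94 and 94.3 mg/kg were -0.16 and -0.16. The dimmer Pex11a probe set gave -0.21, -0.31, -0.20, -0.27 and -0.095.

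Cat encodes catalase, which breaks down the hydrogen peroxide made by the oxidases. It had the lowest residual SD of the set, close to that of Acox2. Its 36 values lay between 12.57 and 13.00, a 1.34-fold range, and its differences were -0.066, -0.11, -0.026, -0.074 and -0.059 with a standard error of 0.060. The spread was widest at 943 mg/kg, where 2 of 6 animals lay above and 2 below the vehicle range. At 0.94 mg/kg 4 of 6 lay below it and 1 above it (adjusted p = 0.999).

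**Figure D2:**
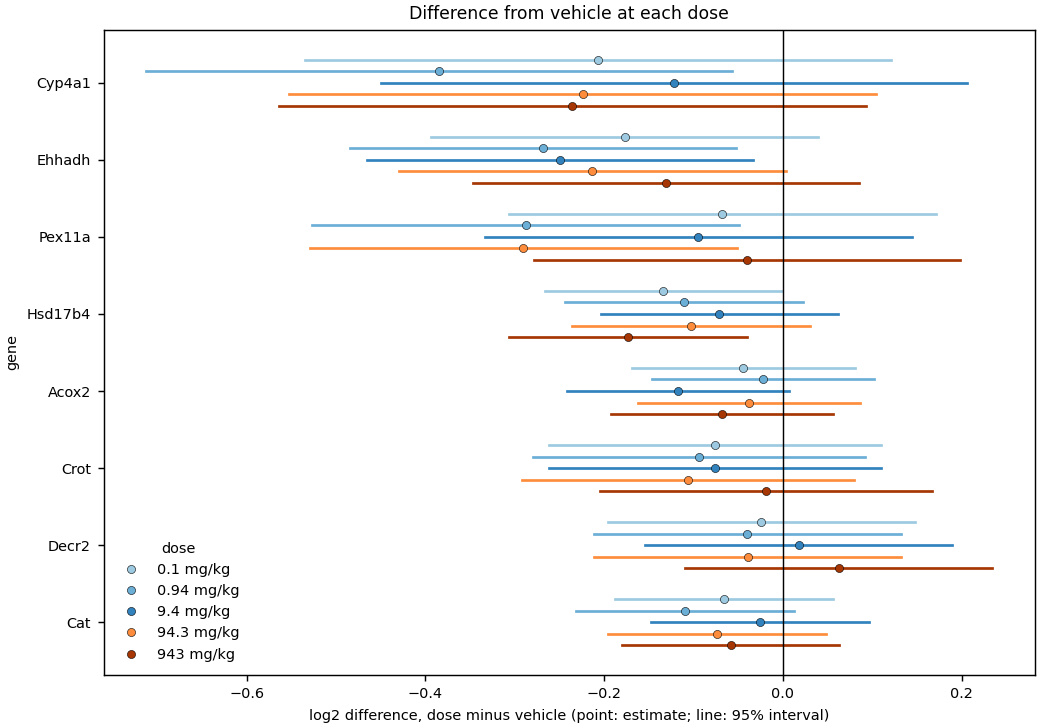
Log2 difference from vehicle (horizontal axis) of each gene (vertical axis) at the 5 doses (colours); points are limma estimates and lines 95% intervals, 6 animals per group. Each gene is shown by its brightest probe set. All 40 upper bounds shown lie below a 1.2-fold increase, and Cyp4a1 has the widest intervals.

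The other genes of the pathway were described from lists without the 9 genes. In each list 0 genes passed at any dose, in the F test or in the trend, against 0% of all probe sets. Of 18 measured genes of peroxisomal beta-oxidation, 15, 14, 12, 14 and 12 lay below vehicle from the lowest to the highest dose, with medians of -0.060, -0.051, -0.045, -0.036 and -0.036 (log2). Without vehicle replicate 4 these counts were 11, 12, 11, 11 and 10, and the medians were -0.024, -0.031, -0.020, -0.010 and -0.016. The genes with the smallest F test p in this list were Crat, the carnitine acetyltransferase, with differences of -0.056, -0.23, -0.13, -0.17 and 0.017, Amacr, the racemase of branched chains, and Acox3, another oxidase. Their adjusted p values were 0.931, 0.931 and 0.934.

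Of 26 measured mitochondrial and fasting targets of PPARalpha, 21, 23, 19, 20 and 21 lay below vehicle, and 19, 21, 12, 17 and 15 without vehicle replicate 4. Their medians were -0.060, -0.059, -0.026, -0.040 and -0.040, and without that animal -0.043, -0.041, 0.0037, -0.016 and -0.015, with the sign turned at 9.4 mg/kg. Cpt1a, the gate of mitochondrial fatty acid import, had differences of -0.19, -0.13, -0.032, -0.18 and -0.087. Txnip, Pdk4 and Fgf21, which respond to fasting and sugar, had the smallest F test p of the list, with adjusted p of 0.886, 0.918 and 0.924. Fgf21 had differences of 1.02 and 0.87 at 0.1 and 0.94 mg/kg and of -0.83 at 94.3 mg/kg. Pdk4 had -0.64 at 94.3 mg/kg. Of the 5 lists from outside the pathway, 3 also lay mostly below vehicle at every dose or at every dose but the highest. With all vehicle animals the lean is thus not particular to the pathway lists. Counts without vehicle replicate 4 were not made for these 5 lists. Of 12 periportal hepatocyte genes 11, 10, 10, 10 and 7 lay below vehicle, of 14 clock genes 12, 9, 11, 10 and 10, and of 11 pericentral hepatocyte genes 8, 10, 8, 8 and 4. The other lists did not keep 1 direction: of 14 cholesterol synthesis genes 4, 14, 6, 0 and 0 lay below vehicle, and of 11 lipogenesis genes 8, 7, 6, 2 and 2.

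Peroxisome biogenesis genes, 18 measured, lay on both sides of vehicle, with 8, 8, 11, 7 and 8 below it, and without vehicle replicate 4 the count at 94.3 mg/kg was 11. Pex7, the receptor of a peroxisomal targeting signal, had the smallest p over all pathway lists at 0.94 and 943 mg/kg, with differences of 0.17 and 0.17 and adjusted p of 0.999 and 0.865. Pex11g and Pex10 came next in the F test of that list, with adjusted p of 0.931 and 0.933. Of 21 other peroxisomal enzymes, 13, 16, 13, 10 and 10 lay below vehicle, and 15, 14, 13, 11 and 11 without vehicle replicate 4. Among them Ephx2, the soluble epoxide hydrolase, had a difference of 1.84 ± 0.63 (SE) at 943 mg/kg that did not pass (adjusted p = 0.865), Pmvk had 0.35 there, and Xdh had -0.47 at 0.1 mg/kg. Lonp2, the peroxisomal protease, had -0.21 at 94.3 mg/kg with an adjusted p of 0.461, the smallest of that list at that dose, and a trend with an adjusted p of 0.825.

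Of 12 measured genes of omega-hydroxylation and the CYP4 family, 10, 8, 9, 10 and 9 lay below vehicle. Without vehicle replicate 4 the counts were 9, 9, 10, 10 and 9, with medians between -0.086 and -0.042 (log2). Cyp4b1, Cyp4v3 and Cyp4f5 had the smallest F test p of the list, with adjusted p of 0.931 each. Cyp4f5 had -0.24 at 9.4 mg/kg. Of 13 regulators of PPARalpha, 7, 9, 9, 7 and 9 lay below vehicle, and 6, 8, 11, 9 and 8 without vehicle replicate 4. The receptor gene Ppara itself had differences of -0.049, -0.080, -0.24, 0.045 and 0.013. Ppard, Hnf4a and Nrip1, a related receptor, a liver transcription factor and a corepressor, had the smallest F test p of that list, with adjusted p of 0.918, 0.918 and 0.931.

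Between animals of the same group the genes differed widely in how much they varied. The residual SD of the log2 values was 0.0971 for Cat, 0.0998 for Acox2, 0.109 for Hsd17b4, 0.149 for Decr2, 0.162 for Crot, 0.192 for Ehhadh, 0.214 for Pex11a and 0.299 for Cyp4a1. Its median over all genes above the median of the arrays was 0.130. Cyp4a1 varied more than 94.6% of these genes, Pex11a more than 87.1% and Ehhadh more than 82.7%, while Cat varied more than 20.3%. With group means taken off, the highest value of Pex11a was 2.05-fold the lowest, that of Cyp4a1 1.99-fold and that of Ehhadh 1.66-fold. These 3 genes had the highest residual SD and the widest range of the 8, with Decr2 next in range at 1.61-fold. The highest Pex11a value was that of vehicle replicate 4, 0.66 (log2) above its group mean. The next animal lay 0.37 above its own group mean, so the Pex11a range leans on 1 animal. Whether this order has to do with PPARalpha was not tested.

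Several of the genes varied together over the 36 animals once group means had been taken off. Each of the 28 pairs was tested with 100000 permutations of animals within groups, two-sided, and p values were adjusted over the 28 pairs by Benjamini-Hochberg. In all 23 pairs had a positive Pearson r, and 10 pairs passed, all 10 of them positive. Of all 45950491 pairs of the 9587 genes above the median of the arrays, 24077266 had a positive r. Those pairs were not put through the permutation test, so no background share can be set beside the 10 that passed. The median r of the 28 pairs was 0.22, against 0.014 over all pairs of these 9587 genes. It was not alike in all groups: within the 94.3 mg/kg group alone it was -0.034, and within the 0.94 mg/kg group alone 0.60. An r over 0.5 was reached by 5 of the 28 pairs (17.9%), against 1.67% of all those pairs.

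The bifunctional enzyme genes Ehhadh and Hsd17b4 had the highest r, 0.593 (Spearman rho 0.576, adjusted permutation p 0.00399 and 0.0113). It was 0.530 without the 2 animals farthest from the median of Ehhadh and positive within 5 of the 6 groups, from -0.638 to 0.911. Cyp4a1 had an r of 0.590 with Hsd17b4 (rho 0.525, adjusted permutation p 0.00399 and 0.0125), positive within all 6 groups and 0.483 without 2 animals. Cyp4a1 and Ehhadh had 0.567 (rho 0.568, adjusted permutation p 0.00399 and 0.0109), positive within 5 groups and 0.627 without 2 animals. Decr2 had 0.561 with Hsd17b4 (rho 0.612, adjusted permutation p 0.00399 and 0.0109), positive within all 6 groups and 0.637 without 2 animals. Decr2 and Ehhadh had 0.507 (rho 0.507, adjusted permutation p 0.0407 and 0.0338), also positive within all 6 groups. With group sizes of 6, an r within a group is imprecise.

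Pex11a correlated with Decr2 (r 0.490), Ehhadh (0.462) and Cyp4a1 (0.406), with adjusted permutation p of 0.0198, 0.0284 and 0.0407, and was positive with Cyp4a1 within all 6 groups. The rho of these 3 pairs was 0.441, 0.419 and 0.408, with adjusted permutation p of 0.0371, 0.0458 and 0.0458, and r without 2 animals was 0.410, 0.494 and 0.403. Crot correlated with Cyp4a1 (r 0.486, rho 0.535, adjusted permutation p 0.0222 and 0.0143, positive within 4 groups) and with Cat (r 0.393, adjusted permutation p 0.0407). The pair of Crot and Cat did not pass by rank (rho 0.342, adjusted permutation p 0.0941), while the other 9 did. Acox2 passed with no other gene: its r lay between -0.368 with Cat (adjusted permutation p 0.0502, negative or 0 within 5 groups) and 0.147 with Hsd17b4. The 5 genes Cyp4a1, Ehhadh, Hsd17b4, Decr2 and Pex11a, grouped after these results were seen, had positive r in all their pairs, from 0.330 to 0.593. Among these pairs, Pex11a with Hsd17b4 (r 0.384) and Cyp4a1 with Decr2 (r 0.330) did not pass (adjusted permutation p 0.0944 each).

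**Figure D3:**
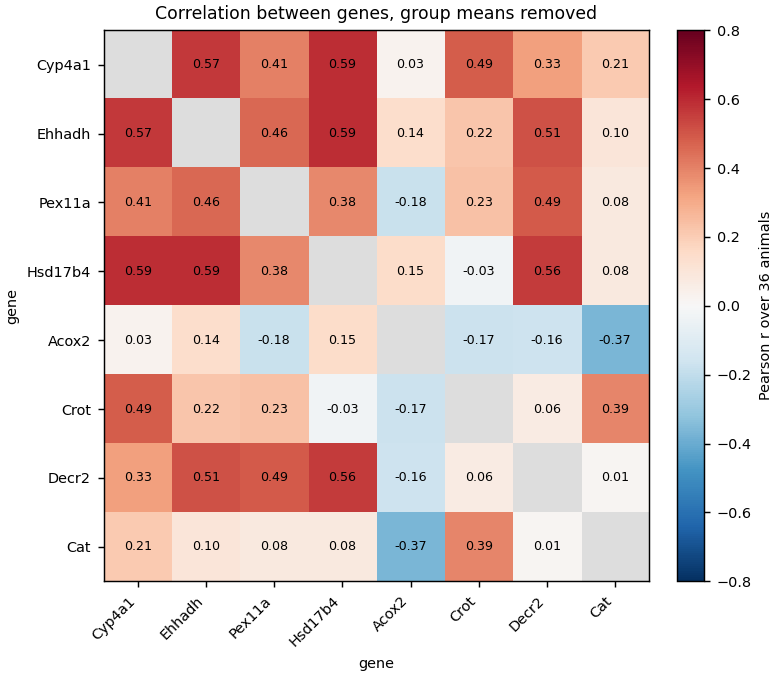
Pearson r between each pair of the 8 genes over 36 animals with group means removed (colour and printed value; grey, a gene with itself). The pairs among Cyp4a1, Ehhadh, Pex11a, Hsd17b4 and Decr2 are all positive, though not all of them passed the test. Acox2 stands apart with r between -0.37 and 0.15.

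Single animals illustrate the pattern but are no further evidence for it. Those named here are among the highest and lowest by the mean of the standardised genes of the set. Deviations of the same sign in most of these genes are therefore partly given by that choice. Replicate 1 of the 0.1 mg/kg group lay above its group mean by 0.26 for Cyp4a1, 0.33 for Ehhadh, 0.37 for Pex11a, 0.15 for Hsd17b4 and 0.29 for Decr2 (log2). Vehicle replicate 4 lay above its group mean by 0.25, 0.30, 0.66, 0.10 and 0.22 for the same genes. Replicate 1 of the 0.94 mg/kg group lay on the other side, with -0.59, -0.13, -0.20, -0.11 and -0.21. These values are deviations from the mean of each animal's own group, so every group must hold animals above and below it. Nothing about dose can be read from that. Replicate 4 of the 9.4 mg/kg group was low for Cyp4a1 (-0.57) and Hsd17b4 (-0.24) but not for Ehhadh (0.039).

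**Figure D4:**
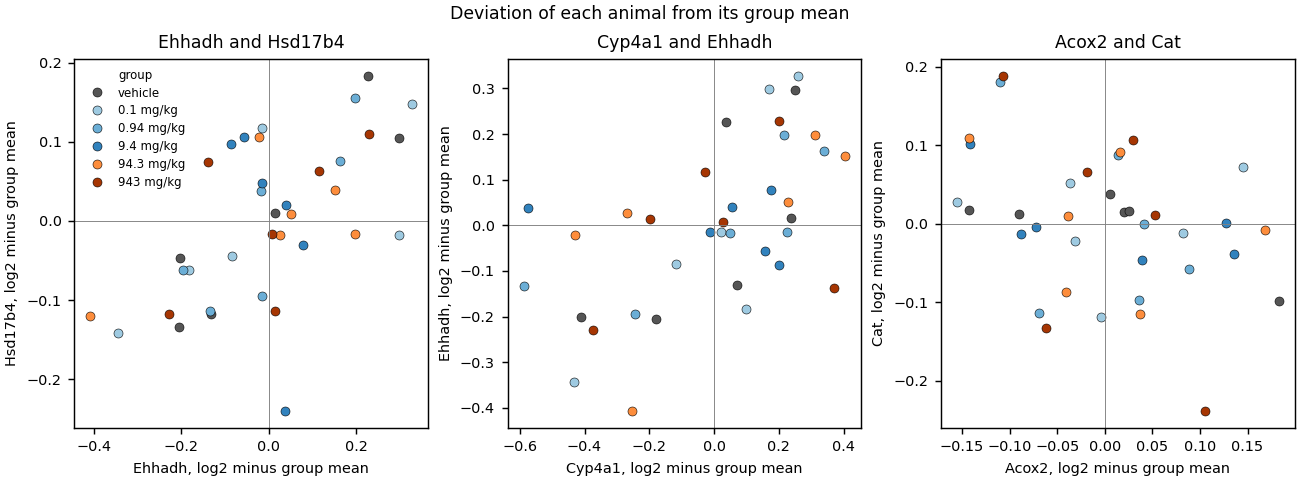
Deviation of each of the 36 animals from its group mean (log2) for 3 pairs of genes, coloured by group. Ehhadh with Hsd17b4 and Cyp4a1 with Ehhadh run upwards (r 0.593 and 0.567), and Acox2 with Cat runs downwards (r -0.368) without passing the test.

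The genes were also set against the mean of each of 11 gene lists, without the 9 genes, over the same animals, which makes 88 relations with p values adjusted over all of them. Pex11a followed the mean of 18 other peroxisomal beta-oxidation genes most closely, with r 0.747 (rho 0.709, adjusted permutation p 0.00088 and 0.00176, the smaller of them from the smallest p that the permutations can give). Its r was positive within all 6 groups and 0.674 without the 2 animals farthest from the median. Decr2 followed the same list with r 0.634 (rho 0.577, adjusted permutation p 0.0202 and 0.0531), positive within all 6 groups and 0.606 without 2 animals. Ehhadh and Cyp4a1 had r of 0.543 and 0.504 with this list (adjusted permutation p 0.0663 each), whereas Acox2 had -0.090 and Cat -0.057. No other relation of the 88 passed.

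Decr2 had r 0.572 with the other peroxisomal enzymes (rho 0.624, adjusted permutation p 0.0663 and 0.0531), a list whose r with the 8 genes ran from -0.35 to 0.57. The peroxisome biogenesis genes had r between -0.35 and 0.20. Hsd17b4 had r 0.506 and Cyp4a1 0.476 with the mitochondrial and fasting targets (adjusted permutation p 0.0663 each), and Cyp4a1 had 0.444 with the omega-hydroxylation list (0.0663). The regulators of PPARalpha had r between -0.14 and 0.17 with the 8 genes. With clock genes r lay between -0.30 and 0.36, with lipogenesis between -0.33 and -0.066, and with cholesterol synthesis between -0.20 and 0.28. Pericentral and periportal hepatocyte genes had r of at most 0.376 and 0.379.

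**Figure D5:**
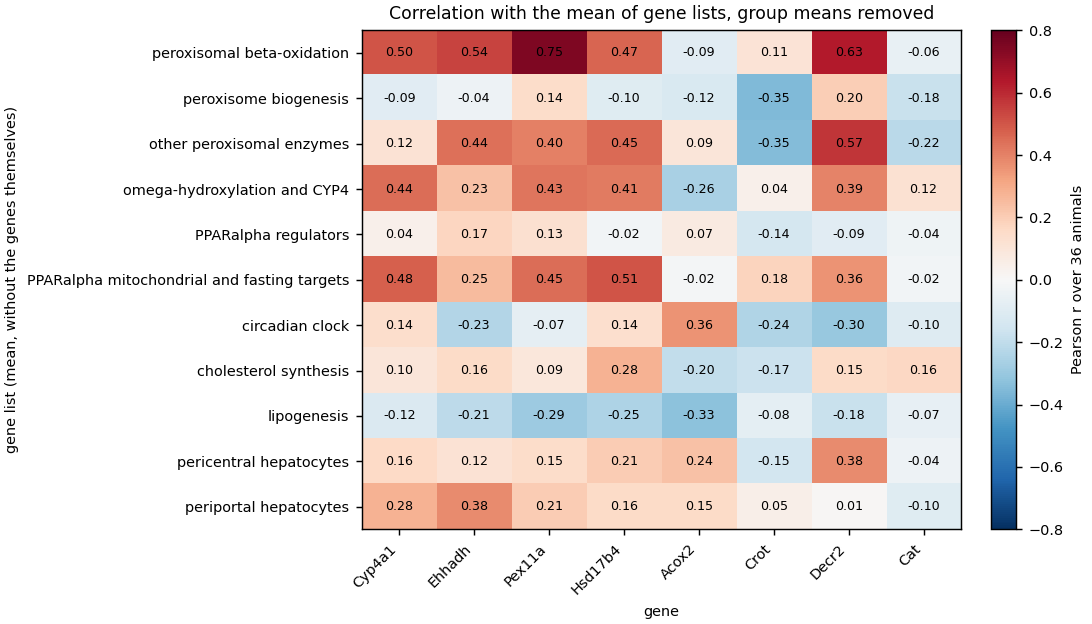
Pearson r over 36 animals, group means removed, between each of the 8 genes (horizontal axis) and the mean of each gene list (vertical axis). The row of peroxisomal beta-oxidation genes holds the highest values, 0.75 for Pex11a and 0.63 for Decr2, which are the pairs that passed.

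The genes most like the set were ranked among 9521 other named genes above the median of the arrays, by r with the mean of the 8 standardised genes over 36 animals, with no test. The first were Mme, a membrane endopeptidase (0.773), Cyp3a23-3a1, a drug-metabolising P450 (0.747), Slco1a4, an organic anion carrier (0.714), Cyp3a18 (0.703) and Cyp4a3 (0.700). Hibch (0.699), Reep3 (0.672), Cyp2j4 (0.652), Acsm2 (0.649) and Hsdl2 (0.648) followed. Of these 10 only Cyp4a3 was in a pathway list. Cyp4a1 alone was most like Aig1 (0.770), Slc4a4 (0.733), Adgrf5 (0.700), Zfand5 (0.694) and Entpd5 (0.686).

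Pex11a was most like Nbn, a DNA repair gene (0.836), and Crat (0.826), the carnitine acetyltransferase of the beta-oxidation list. Decr2 was most like Slc25a20, the mitochondrial carnitine carrier (0.701), and Hsdl2 (0.685). Ehhadh was most like Cyp3a18 (0.721) and Mme (0.685), and Hsd17b4 most like Aldh2 (0.756) and Fam117b (0.743). For Acox2 they were Lox (0.633) and Ivd (0.622), for Crot Fndc3a (0.676) and Mmut (0.672), and for Cat Lap3 (0.732) and Ugt2b15 (0.691).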

How the data were processed

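Liver RNA was measured on 36 Affymetrix rat arrays. The deposited log2 values per probe set were made by the authors with RMA and affy, as the submitters' processing notes name them without versions. Quantile normalization in RMA gives all arrays nearly the same distribution, so a shift shared by most genes cannot be seen. The 31042 probe sets left without the 57 array controls were tested in 1 model of group means over all arrays (limma 3.58.1 in R 4.3.3, eBayes, no filter on signal), which replaced the authors' R/maanova test. P values are two-sided and adjusted by Benjamini-Hochberg within each comparison over all probe sets, with a threshold of 0.05. The scripts were tested on simulated data. Correlations used values minus group means (numpy 2.4.6, pandas 2.3.3). Named genes are the listed genes, in each pathway list the 3 with the smallest F test p, the gene with the smallest p at each dose, the genes most alike and the ends of marker lists; Cyp4a3, Cyp4a8, Cpt1a and Ppara were chosen after their values were seen. The genes and lists were chosen with earlier results of these data known, and the GC, CCAAT and TATA boxes after seeing the data. Alternatives were low-signal filters, variance models, array weights, the replicate block, centring, fits of 12 arrays, other dose scores and each animal left out.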

Additional observations from a re-analysis of the deposited data

Results flagged for a closer look

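In each group of 6 animals the highest and lowest value of each of the 8 genes were set against the others. Of the 48 combinations of gene and group, 6 held an animal far from the rest. For a single combination chance gives a flag about 1 time in 20. The genes share the same animals and several vary together, so the 48 are not independent. Cyp4a1 was low at 10.17 in replicate 4 of the 9.4 mg/kg group, where the next animal had 10.73. Ehhadh was low at 10.13 in replicate 2 of the 94.3 mg/kg group, with the next at 10.51. Pex11a was high at 8.77 in vehicle replicate 4, with the next at 8.08. Crot was low at 10.49 in replicate 2 of the 0.1 mg/kg group, with the next at 10.89. Cat was low at 12.77 in vehicle replicate 6, with the next at 12.88, and high at 12.95 in replicate 6 of the 9.4 mg/kg group, with the next at 12.84. What sets these animals apart was not tested.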

How the results depend on the processing

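The number of genes passing was 0 of 8 in all 106 alternative settings of the 7 tests, and the smallest adjusted p of any of the 8 genes in them was 0.465. With the replicate block the number passing was 0 as well. Over all probe sets tested these settings also called 0, with 2 exceptions. They called 11 without replicate 1 of the 94.3 mg/kg group and 1 without replicate 3 of the 9.4 mg/kg group. The count of 0 of 8 is thus close to the background. Same-numbered animals did not deviate together: 18 of 90 pairs had a correlation over 0.1, with a median of 0.0026 and a range from -0.27 to 0.29, so the numbers were not taken as pairs. Array weights, centring on array medians and the replicate block changed the sign of none of the 40 differences. Leaving out 1 animal at a time changed the sign of 10 of the 40, with ranges as follows. At 0.1 mg/kg they were -0.14 to 0.063 for Pex11a, -0.13 to 0.0013 for Crot and -0.083 to 0.055 for Decr2. At 0.94 mg/kg they were -0.051 to 0.014 for Acox2 and -0.076 to 0.0038 for Decr2. At 9.4 mg/kg they were -0.16 to 0.036 for Pex11a and -0.019 to 0.061 for Decr2. At 94.3 mg/kg Decr2 ranged from -0.076 to 0.0041, and at 943 mg/kg Pex11a from -0.086 to 0.091 and Crot from -0.076 to 0.029. The median r of the 28 gene pairs, 0.22 over all animals, was -0.034 within the 94.3 mg/kg group alone and 0.60 within the 0.94 mg/kg group alone; the cause was not tested. It was 0.16 without the 2 animals farthest from the median, 0.30 with group means kept and 0.23 by rank. Groups of 6 animals limit the precision, and the counts without vehicle replicate 4 were chosen after seeing the data.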
